A study of Mus musculus with 4 samples.

Results

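The cells described here were 1799 bone marrow cells that carried an assembled immunoglobulin heavy chain and no assembled light chain. They came from the control library sorted for CD45.2 and low B220, and they were the cell barcodes with 1000 or more UMIs (unique molecular identifiers, 1 per captured transcript), 500 or more genes and no more than 10% of UMIs from mitochondrial genes that had an IGH contig and neither an IGK nor an IGL contig. They made up 11.0% (10.5 to 11.5, exact binomial 95% interval) of the 16329 cells of that library that passed the same limits, and the series held 55216 such cells. The limits removed 8 of 1807 heavy-only barcodes, all of them for UMIs. The highest total left out was 974 UMIs and the lowest total kept was 1015. Apart from these limits, the choice used contigs only and no level of a named gene.

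The series profiled CD45.2-sorted mouse bone marrow 10 weeks after transplantation with a 10x Genomics 5′ version 2 kit, in 4 libraries with 1 library per group. The library studied here was control B220lo cells. The other libraries were Kit+ cells, 1 from control, 1 from Mll3/4 deleted and 1 from Mll3/4SI marrow; the labels do not expand SI, and they give neither a strain, a deleting transgene nor the number of mice pooled. Heavy-only cells numbered 0 of 11891 in the control Kit+ library, which allows a share of up to 0.0252% (3 counts of the total, the form of limit also used below). They numbered 1 of 12081 in the Mll3/4SI Kit+ library and 3363 of 14915 in the Mll3/4 deleted Kit+ library. With 1 library per group no difference between cells was tested, and every interval below covers counting error only.

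A developing B cell rearranges its heavy chain gene first and its light chain genes later. In between, the new heavy chain is displayed with a surrogate light chain, built from the products of Vpreb1, Vpreb2 and Igll1, as the pre-B cell receptor. Signals from that receptor and from the interleukin 7 receptor drive a burst of division, after which large cycling pre-B cells become small resting pre-B cells. Small pre-B cells display CD25, the product of Il2ra, switch the RAG recombinase on again and rearrange a light chain.

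The nearest comparison in the same library was with 7243 cells that had a heavy and at least 1 light chain contig. Of these, 5786 had a kappa chain, 1197 a lambda chain and 260 both. The median depth was 3213 UMIs per heavy-only cell and 3173 per heavy plus light cell, but the upper quartile was higher in heavy-only cells (quartiles 2270 and 7124 against 2430 and 5117). Summed over cells, the groups held 10816371 and 35621474 UMIs. Expression is given as CPM, the UMIs of a gene scaled to a common total of summed UMIs per group, so deep cells weigh more and a sum cannot tell more expressing cells from more transcripts per cell.

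The heavy chain itself is the sequence that selected these cells, and its CDR3 is the part that differs most from cell to cell. The first set of lines shows the 5 CDR3 sequences found in exactly 2 heavy-only cells each and in no other cell. The second set shows the 4 found in 1 heavy-only cell and in at least 4 cells in all. Sequences run 5′ to 3′ as assembled in the deposited contigs, and capitals mark the cysteine and tryptophan codons that bound the CDR3.
IGHV1-22 IGHJ3: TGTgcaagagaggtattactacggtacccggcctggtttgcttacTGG
IGHV1-66 IGHJ1: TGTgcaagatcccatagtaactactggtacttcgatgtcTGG
IGHV2-2 IGHJ2: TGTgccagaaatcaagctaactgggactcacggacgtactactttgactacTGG
IGHV4-1 IGHJ1: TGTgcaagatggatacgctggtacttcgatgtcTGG
IGHV7-3 IGHJ2: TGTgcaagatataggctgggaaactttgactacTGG

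IGHV5-4 IGHJ4: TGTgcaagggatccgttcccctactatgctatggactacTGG
IGHV10-1 IGHJ2: TGTgtgagggcctggtactttgactacTGG
IGHV10-3 IGHJ3: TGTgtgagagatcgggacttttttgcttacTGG
IGHV1-77 IGHJ3: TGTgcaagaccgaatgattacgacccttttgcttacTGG
Heavy chains were otherwise nearly all different. The 1799 cells carried 1794 distinct chains, counting V gene, J gene and CDR3 together. A chain was also found in another cell for 63 cells (3.50%, 2.70 to 4.46), of which 53 shared it with heavy plus light cells and 10 with another heavy-only cell. Among heavy plus light cells 7.09% of heavy contigs were shared with another cell.

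The 2 sets of shared chains differed in their contigs. All 10 cells of the first set had IGHM contigs, which held 11 to 52 UMIs each. In the second set the heavy-only cell had an IGHA contig of 2 to 4 UMIs each time. Those 4 chains were also in 24 heavy plus light cells, 18 of them with IGHA, and the largest contig of each chain held 2443 to 5878 UMIs. The median contig of each chain in the heavy plus light cells held 2, 1617, 2 and 5.5 UMIs, in the order printed. Whether the small contigs came from the cells themselves was not tested. IGHA is the heavy chain of a class-switched cell, and only 8 heavy-only cells had it. The other 49 chains shared with heavy plus light cells were each in 1 such cell.

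Igll1, the gene of the λ5 part of the surrogate chain, lies on chromosome 16 from 16860671 to 16863985 on the minus strand (GRCm38). Its promoter window is shown because Igll1 had the largest ratio of the surrogate chain genes. The 250 bases before the start, from RefSeq on GRCm38.p6 (chr16:16863986-16864235, minus strand), are printed 5′ to 3′. Capitals mark the match to CCCNNGGG, the core bound by early B-cell factor, which reads the same on both strands.
Igll1: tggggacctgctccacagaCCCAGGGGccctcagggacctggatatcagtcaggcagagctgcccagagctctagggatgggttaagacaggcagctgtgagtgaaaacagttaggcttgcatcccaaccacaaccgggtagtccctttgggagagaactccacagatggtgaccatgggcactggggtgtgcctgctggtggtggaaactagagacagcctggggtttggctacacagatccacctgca
That core occurs in 11.8% of 32851 RefSeq windows of this length, and the match begins 231 bases before the start. The E-box CANNTG, also the same on both strands, occurs 3 times in the window and in 66.2% of all windows. A match in letters is not a measured binding site.

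Summed over cells, surrogate light chain genes were higher in heavy-only cells. The level was uneven within them. In the clusters described below, Igll1 stood at 1263 CPM in 213 cells and at 80.1 and 56.9 CPM in 900 and 193 cells. Vpreb1, which encodes the variable-like part of the surrogate chain, stood at 354 CPM (343 to 365, exact Poisson 95% interval) in heavy-only and 201 CPM (196 to 205) in heavy plus light cells. Igll1 stood at 608 CPM (593 to 623) and 293 CPM (288 to 299), a ratio of 2.07 (2.01 to 2.14, exact conditional interval). Vpreb2, the close copy of Vpreb1, stood at 45.1 and 22.5 CPM, and reads of the 2 copies may be split uncertainly. All 3 were above 0 on the log2 scale, which carries 1 CPM added, and 1 of 3 reached 2-fold, where 0.536% of the 11192 genes tested were 2-fold higher and 3.99% moved 2-fold in either direction. Over the alternatives run, the log2 ratio ranged from 0.55 to 1.48 for Igll1 and from 0.48 to 1.20 for Vpreb1. In the 1570 non-B cells of the library, Igll1 stood at 22.0 CPM and Vpreb1 at 18.8 CPM. These cells serve as the background for free RNA, but they were chosen to have no Cd79a UMI and were deeper, with a median of 5753 UMIs.

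Vpreb1 (ENSMUSG00000059305) lies on chromosome 16 from 16868403 to 16870843 and Il2ra (ENSMUSG00000026770) on chromosome 2 from 11642807 to 11693193. The given markers Vpreb1, Igll1 and Il2ra did not move together. Il2ra stood at 101.1 CPM (95.2 to 107.3) in heavy-only and 101.2 CPM (97.9 to 104.6) in heavy plus light cells, a log2 ratio of -0.00085. With each cell weighing the same its log2 ratio was 0.43, and with heavy-only cells restricted to those without a light chain constant UMI it was -0.71, so it had no stable direction. After every cell was thinned at random to 1000 UMIs, 16.4% of heavy-only cells (14.7 to 18.2) and 12.9% of heavy plus light cells (12.1 to 13.7) had an Il2ra UMI, against 0.955% of the non-B cells. Without thinning the shares were 37.2% and 31.0%. A surrogate chain UMI was in 23.8% of thinned heavy-only cells (21.8 to 25.8), 15.4% of heavy plus light cells and 4.65% of non-B cells. A surrogate chain and an Il2ra UMI were found together in 2.78% of heavy-only cells (2.07 to 3.65), and 62.6% had neither, so at this depth the shares do not show how far the markers lay in the same cells.

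**Figure D1:**
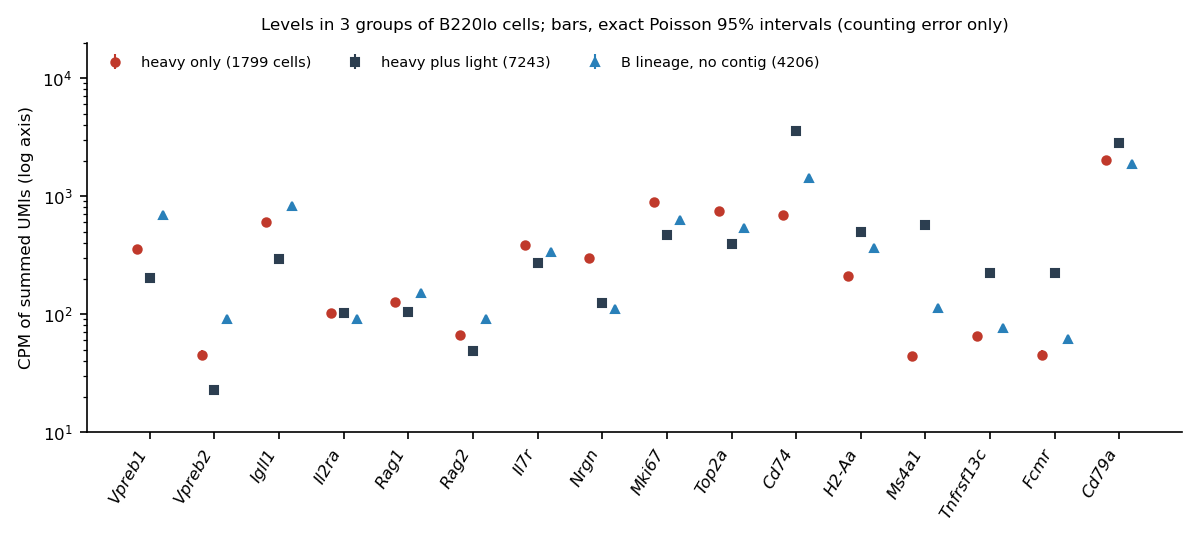
Summed level of 16 genes in heavy-only, heavy plus light and contig-free B-lineage cells, in CPM on a log axis; bars are exact Poisson 95% intervals, mostly smaller than the points. The surrogate chain genes Vpreb1, Vpreb2 and Igll1 lie higher in heavy-only than in heavy plus light cells, Il2ra is level at 101.1 and 101.2 CPM, and Cd74 and Ms4a1 lie lower.

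Summed over each group, genes of the recombination machinery stayed within 2-fold. Rag1, the catalytic subunit of the recombinase, stood at 126 CPM in heavy-only and 104.9 CPM in heavy plus light cells, and its partner Rag2 at 65.8 and 48.3 CPM. Over the alternatives run, the log2 ratio of Rag1 ranged from -0.42, in heavy-only cells without a light chain constant UMI, to 0.78, with cells thinned to 1000 UMIs. Of the 10 genes of V(D)J recombination and end joining, 0 reached 2-fold in either direction, where 3.99% of all genes tested did. Their median log2 ratio was 0.22 and that of all genes tested was 0.0012. The lowest of them was Dntt, the polymerase that adds untemplated bases at heavy chain joints, with 32.9 and 51.8 CPM. At 1000 UMIs per cell a Rag1 or Rag2 UMI was in 28.1% of heavy-only cells (26.0 to 30.2), 17.2% of heavy plus light cells (16.4 to 18.1) and 1.21% of non-B cells.

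Cell-cycle genes were higher throughout. Of 20 S phase genes, 20 were above 0 and 3 reached 2-fold (Gins2, Dut and Rrm2), with a median log2 ratio of 0.84. Of 20 G2/M genes, 20 were above 0 and 8 reached 2-fold, with a median of 0.99, where 0.536% of all genes tested were 2-fold higher. Mki67, a marker of dividing cells, stood at 892 CPM in heavy-only and 467 CPM in heavy plus light cells. Cdk1, the mitotic kinase, stood at 208 and 102 CPM, and Rrm2, a subunit of ribonucleotide reductase, at 332 and 164 CPM. With each cell weighing the same, the 2-fold counts were 6 of 20 S phase and 20 of 20 G2/M genes, where 1.33% of all genes tested were 2-fold higher (3.54% in either direction).

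**Figure D2:**
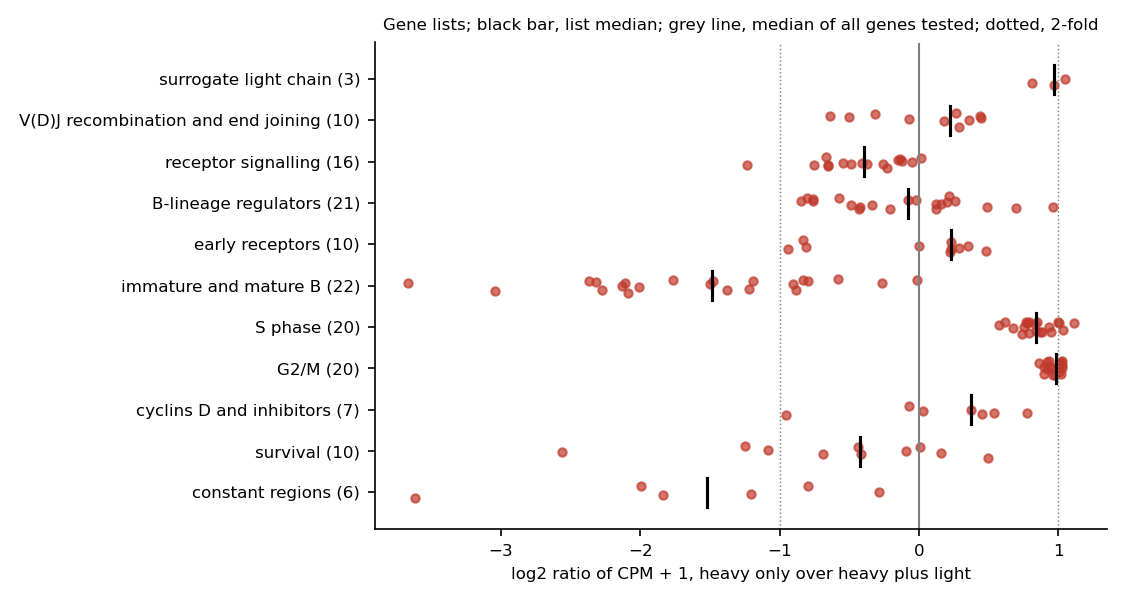
Log2 ratio of heavy-only over heavy plus light cells for each tested gene of 11 lists (1 CPM added); black bars are list medians, the grey line the median of all 11192 genes tested, and dotted lines 2-fold. S phase and G2/M genes lie together right of 0, and all 22 immature and mature B genes lie left of 0.

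The cells were then split by the summed UMIs of these 40 cycle genes at 1000 UMIs per cell. The split is a range of a score and not a cell type, and 53 heavy-only cells lay at 4 or 5 UMIs, on either side of its upper limit. Cells with 5 or more made up 35.2% of heavy-only (33.0 to 37.5) and 14.5% of heavy plus light cells (13.7 to 15.4). These cells were deeper before thinning, with medians of 8474.5 and 8995.5 UMIs against 2528 and 3114 UMIs in cells with 0, and the part of depth in the split was not tested.

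Within the heavy-only cells the split separated the markers. Il2ra stood at 275 CPM (228 to 328) in the 437 cells with 0 cycle UMIs and at 37.9 CPM (24.3 to 56.3) in the 634 cells with 5 or more. Rag1 stood at 366 CPM (312 to 427) and 50.5 CPM (34.5 to 71.3) in the same cells. Igll1 ran the other way, with 151 CPM (117 to 192) in cells with 0 and 491 CPM (438 to 548) in cells with 5 or more. Nrgn, which encodes the calmodulin-binding protein neurogranin, stood at 13.7 CPM (5.04 to 29.9) and 299.7 CPM (259 to 345). A surrogate chain UMI was in 38.6% of the 634 cells and 14.4% of the 437 cells.

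Heavy-only and heavy plus light cells were then compared within the same range of the score. Among cells with 0 cycle UMIs, heavy-only cells had more Il2ra (275 against 175 CPM), more Rag1 (366 against 172 CPM) and more Rag2 (149 against 59.7 CPM), and none of the 3 pairs of Poisson intervals overlapped. Rag1 and Rag2 thus differed by more than 2-fold there, unlike in the summed groups. The intervals were also apart in the 728 heavy-only cells with 1 to 4 cycle UMIs, where Il2ra stood at 301 against 168 CPM, Rag1 at 422 against 182 CPM and Rag2 at 125 against 65.7 CPM. Among cells with 5 or more, Il2ra stood at 37.9 and 56.1 CPM, Rag1 at 50.5 and 58.0 CPM and Rag2 at 66.2 and 50.4 CPM, with overlapping intervals. Over all thinned cells the log2 ratio of Il2ra was 0.39.

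Igll1 had the higher value in heavy-only cells in each range of the score. It stood at 151 CPM (117 to 192) against 104 CPM (91.5 to 117) at 0 cycle UMIs, with intervals that met, and at 159 CPM (132 to 191) against 110.2 CPM (99.9 to 121) at 1 to 4. At 5 or more it stood at 491 CPM (438 to 548) against 397 CPM (360.2 to 437). Vpreb1 stood at 146 and 110.4 CPM, 135 and 92.1 CPM, and 289 and 255 CPM in the same order, and its intervals were apart only at 1 to 4.

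The comparison was repeated against heavy plus light cells without Ms4a1 (CD20), a gene of more mature B cells. Of the heavy plus light cells, 3574 had a UMI of Ms4a1 and 3669 had none. Heavy-only cells were not filtered on it here or below, and at 0 cycle UMIs they held 121 CPM of Ms4a1. Against the 1126 cells without Ms4a1 and with 0 cycle UMIs, Il2ra was level, at 275 CPM in heavy-only and 274 CPM in heavy plus light cells. Rag1 stood at 366 CPM (312 to 427) and 284 CPM (254 to 317), with intervals that met, and Rag2 at 149 CPM (115 to 189.6) and 93.2 CPM (76.3 to 113), with intervals apart. Both values were again higher in heavy-only cells at 1 to 4 cycle UMIs, but there Rag1 had the separate intervals. It stood at 422 CPM (376 to 472) and 288 CPM (264 to 313), and Rag2 at 125 CPM (101 to 153) and 106 CPM (92.0 to 122), with overlapping intervals. Il2ra stood at 301 CPM (262 to 343) and 249 CPM (227 to 273) there, also overlapping. The Igll1 intervals overlapped in each of the 3 ranges, with 125 CPM (105.4 to 148), 141 CPM (124 to 159) and 433 CPM (386 to 484) in the cells without Ms4a1.

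**Figure D3:**
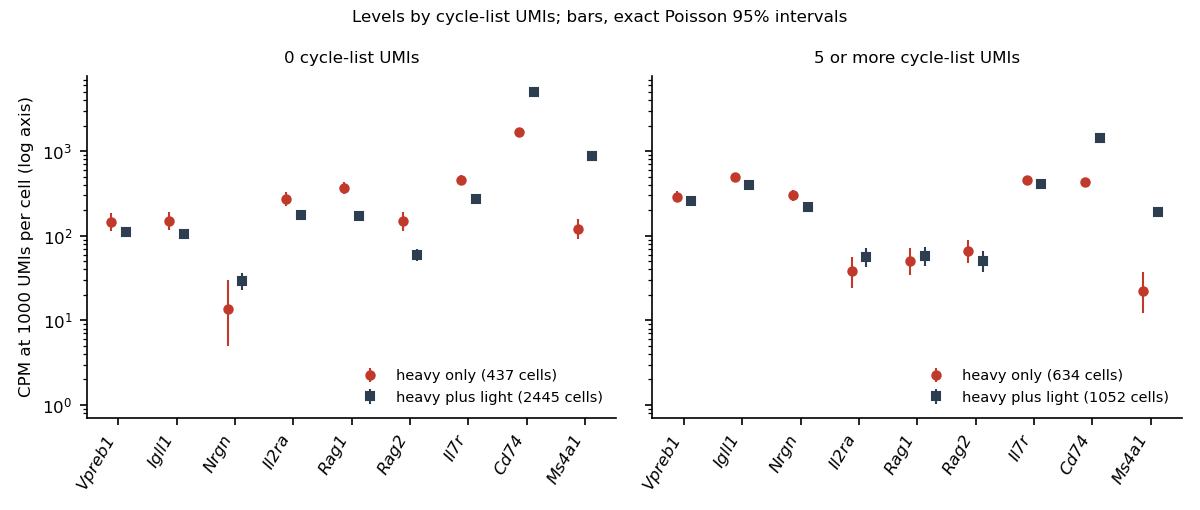
Levels of 9 genes in cells with 0 (left) and 5 or more (right) cycle-list UMIs at 1000 UMIs per cell, in CPM on a log axis, for heavy-only (red circles) and heavy plus light cells (dark squares); bars are exact Poisson 95% intervals. Il2ra, Rag1 and Rag2 lie higher in heavy-only cells on the left and overlap on the right, while Cd74 and Ms4a1 lie lower on both sides.

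Genes of immature and mature B cells were lower. Of 22 such genes, 22 were below 0 and 15 were 2-fold lower, with a median log2 ratio of -1.49, where 3.46% of the genes tested were 2-fold lower. Ms4a1 stood at 43.9 CPM (40.1 to 48.0) in heavy-only and 569 CPM (561 to 577) in heavy plus light cells. Cd74, the invariant chain of MHC class II, stood at 694 and 3585 CPM. Tnfrsf13c, the receptor for the survival factor BAFF, stood at 64.7 and 222 CPM, and Fcmr, the receptor for IgM, at 45.2 and 223 CPM. Ccr7, a homing receptor, was level at 55.3 and 55.8 CPM. H2-Aa, a class II chain, stood at 211 and 493 CPM, but the plasmacytoid dendritic marker list, whose cells also carry class II, was lower as well (548 and 940.0 CPM summed over its 8 genes, 5 of 8 at 2-fold, none at 0), and its part in the result was not tested.

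The difference was smaller without the Ms4a1-positive cells. Against the 3669 heavy plus light cells without Ms4a1, Cd74 stood at 694 and 1042 CPM when summed. At 0 cycle UMIs it was higher in heavy-only cells, at 1675 CPM (1556 to 1801) and 1397 CPM (1329 to 1468). Only the comparison group was filtered on Ms4a1, and the part of that 1-sided filter was not tested. The Cd74 intervals overlapped at 1 to 4 (1238 and 1283 CPM) and at 5 or more (429 and 478 CPM). The median log2 ratio of the 18 tested genes of this list other than Ms4a1 was -0.31. In that comparison 0.0573% of 10469 genes were 2-fold higher and 1.21% were 2-fold lower in heavy-only cells, 1.27% together. The 6 higher genes were Ms4a1, which the choice of cells set to 0 in the comparison group, 4 globins and the heme synthesis gene Alas2. None of the 40 cycle genes reached 2-fold there, with medians of 0.60 for S phase and 0.64 for G2/M, and the surrogate chain median was 0.69.

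Receptor signalling genes were mostly slightly lower. Of 16, 15 were below 0 and 1 was 2-fold lower, where 3.46% of all genes tested were, and the median log2 ratio was -0.39. That gene was Ptpn6, the phosphatase SHP-1 that damps receptor signals, with 149 and 353 CPM. Cd79a and Cd79b, the signalling chains of both the pre-B and the B cell receptor, stood at 2002 and 2803 CPM and at 1228 and 1795 CPM. Within the ranges of the cycle score Cd79a stood at 4025 and 3960 CPM at 0 and at 4066 and 4016 CPM at 1 to 4, with overlapping intervals, and at 1394 CPM (1304 to 1489) and 1658 CPM (1581 to 1738) at 5 or more. Against cells without Ms4a1 it was higher in heavy-only cells at 0, where those cells had 3342 CPM (3236 to 3450). The same held at 1 to 4, where cells without Ms4a1 had 3523.5 CPM (3438 to 3610.5), while intervals overlapped at 5 or more (1374 CPM). Blk, a Src-family kinase, was level at 198 and 195 CPM. Syk and Blnk, the kinase and adaptor next in the pathway, had log2 ratios of -0.13 and -0.05. Against heavy plus light cells without Ms4a1, 0 of the 16 genes were 2-fold lower, where 1.21% of all genes tested were. Their lowest log2 ratio there was -0.33 and their median -0.14.

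Of 21 tested B-lineage regulators, 0 reached 2-fold, where 3.99% of all genes tested did. Myc, a driver of growth, had the highest log2 ratio of them at 0.96, with 123 and 62.9 CPM, and Lef1 followed at 0.70 with 179.9 and 111 CPM. Within each range of the cycle score the intervals of both genes overlapped. At 1 to 4 cycle UMIs Myc had the lower value in heavy-only cells (17.9 against 25.1 CPM). Spib, Irf8, Ikzf3 and Klf2 were lowest, with log2 ratios of -0.85, -0.80, -0.76 and -0.76. Pax5 and Ebf1, which hold B-lineage identity, had log2 ratios of -0.21 and 0.12. Within the cycle score Ebf1 was higher in heavy-only cells at 0 (3929 against 2687 CPM) and at 1 to 4 (3959 against 2991.5 CPM), with intervals apart. Its intervals overlapped at 5 or more (2790 and 2849 CPM). Of 10 early receptors 0 reached 2-fold: Il7r, the growth factor receptor of these stages, stood at 382 and 273 CPM, and Kit at 3.42 and 6.88 CPM. Of 10 survival genes 3 were 2-fold lower, where 3.46% of all genes tested were, namely Bcl2 (22.7 and 55.2 CPM), Mcl1 (162 and 346 CPM) and Bcl2a1b, one of a family of near-identical copies, with 4 UMIs in heavy-only cells and a ratio of 0.052 (0.014 to 0.136). With each cell weighing the same only Bcl2a1b of these 10 was still 2-fold lower, where 2.21% of all genes tested were. Against heavy plus light cells without Ms4a1, 0 of the 8 survival genes tested were 2-fold lower, where 1.21% of all genes tested were.

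Over all genes, 60 were 2-fold higher and 387 were 2-fold lower in heavy-only than in heavy plus light cells. Of the 12 largest ratios upward, 4 were globins, and 3 heavy-only barcodes held 98.9% of the globin UMIs of the group. The others were Nrgn (301 and 123 CPM), Crhbp, the branched-chain aminotransferase gene Bcat1 and 5 cell-cycle or DNA replication genes, Gtse1, Esco2, Gins2, Pbk and Aunip, with ratios of 2.17 to 2.49. Of the 12 largest downward, Jchain, the joining chain of secreted IgA and IgM, was first with 46.6 and 2753 CPM. In heavy plus light cells 128 cells with at least 20 Jchain UMIs held 97.6% of them, and 0 heavy-only cells reached 20. Next came a pair of plasma cell genes: Tnfrsf17, with 2 UMIs in heavy-only cells and a ratio of 0.0127 (0.0015 to 0.0463), and Ccr10, with 0 UMIs and 11.7 CPM in heavy plus light cells, at least 42.3-fold lower against a floor of 3 counts over the group. The rest were Ms4a1, the cystatin-like Cstdc5, Wnt10a, Slpi, Il4i1, St8sia6, Shisa8, the activation marker Cd83 and the low-affinity IgE receptor Fcer2a. Cstdc5 (2 UMIs) and Shisa8 (3 UMIs) had ratios of 0.0144 (0.0017 to 0.0525) and 0.0265 (0.0054 to 0.078).

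Barcodes with markers of other cell types were present in both groups. At least 10 UMIs of granulocyte, monocyte, NK, T, erythroid, basophil and plasmacytoid dendritic markers were in 74 heavy-only cells (4.11%) and 493 heavy plus light cells (6.81%). A Cd79a UMI was in 97.7% of heavy-only cells, unthinned. Without the cells with such markers the immature and mature B median was -1.64 and the surrogate chain median 0.82, and the globin ratios lost their direction; that alternative was chosen after seeing the data. Of the 1799 barcodes, 39 were also in the control Kit+, 50 in the Mll3/4 deleted and 27 in the Mll3/4SI library, and 0 shared both barcode and heavy chain with the deleted library. Of all 16861 deposited B220lo barcodes, 286, 345 and 249 were also in these libraries, in the same order.

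Light chain transcripts were counted in cells without a light chain contig. A UMI of Igkc or of Iglc1 to Iglc3, the light chain constant genes, was in 65.5% of heavy-only cells (63.2 to 67.7), 83.4% of heavy plus light cells and 44.8% of the deeper non-B cells. At least 3 were in 31.3%, 58.9% and 17.8%. At 1000 UMIs per cell the shares were 38.8% (36.5 to 41.1), 60.1% and, in non-B cells, 17.4%. At least 3 such UMIs were in 14.2% of thinned heavy-only cells, 25.5% of heavy plus light cells and 1.15% of non-B cells. Igkc stood at 71.3 CPM in heavy-only and 884 CPM in heavy plus light cells, and Iglc2 at 169.7 and 608 CPM. With each cell weighing the same Igkc stood at 110.1 and 489 CPM. These levels are tied to the rule that chose the cells by their light chain contigs. Ighm stood at 823 and 1004 CPM when summed. Within the cycle score its direction turned at 0, with 1471 and 1322 CPM and overlapping intervals, and at 1 to 4, with 1508 CPM (1420 to 1600) and 1361 CPM (1324 to 1399).

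Heavy-only cells with many light chain transcripts differed from the rest. Counting V, J and constant genes, 544 (30.2%) had at least 10 light chain UMIs and 1255 had fewer, with median depths of 2529 and 4005 UMIs. The 544 cells had 134 CPM of Ms4a1, 227 CPM of Il2ra and 283 CPM of Rag1. The 1255 cells had 25.1, 74.8 and 93.6 CPM of these genes. Igll1 ran the other way, at 216 and 689.9 CPM, and Mki67 at 352 and 1005 CPM. Depth moved with this split, and its part in the result was not tested.

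**Figure D4:**
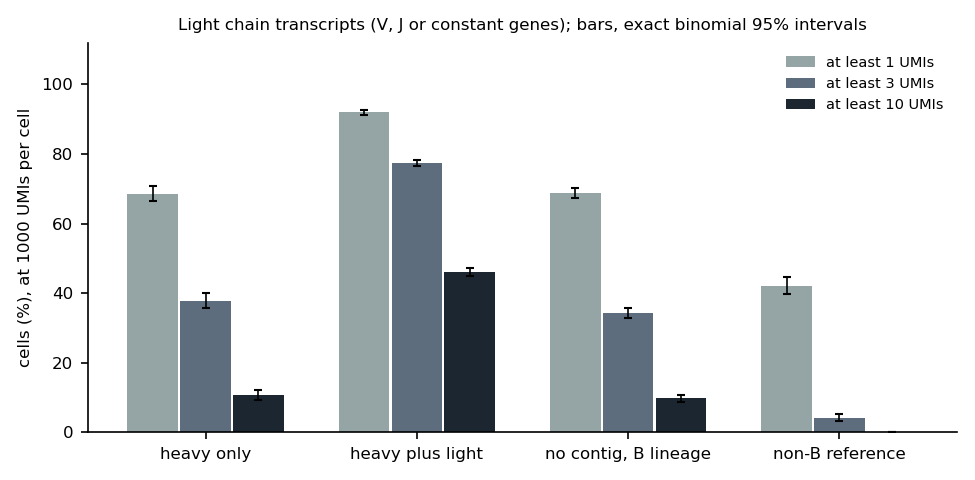
Share of cells with at least 1, 3 or 10 UMIs of light chain V, J or constant genes at 1000 UMIs per cell, in 4 groups of the B220lo library; bars carry exact binomial 95% intervals. Heavy-only cells lie between heavy plus light and non-B cells at each limit and close to B-lineage cells without a contig.

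The heavy chain contigs were those of unswitched cells. IGHM was the constant gene of 98.3% of heavy-only and 92.3% of heavy plus light contigs, and IGHA of 0.445% and 3.55%. IGHG2B was on 0 of 1799 heavy-only contigs, which allows a share of up to 0.167%, and on 0.516% of heavy plus light contigs. Each heavy-only cell had exactly 1 heavy contig, with 0 of 1799 carrying a second, while 703 of 7243 heavy plus light cells (9.71%) did. The contigs were filtered before deposit. Whether that step could keep a second heavy contig in a cell without a light chain was not tested, so the 0 is not read as a trait. Contig depth was similar, with medians of 15 and 14 UMIs. CDR3 length was 13.7 ± 2.86 amino acids (SD over 1799 contigs) and 13.6 ± 2.83 (SD over 7946 contigs).

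Most gene segment shares differed little. J segment shares had ratios of 0.97 to 1.03, and all 4 intervals held 1. IGHV family 2 made up 7.56% of heavy-only and 5.47% of heavy plus light contigs, a ratio of 1.38 (1.13 to 1.68), and family 4 made up 2.33% and 1.59%, a ratio of 1.47 (1.01 to 2.10). The other 8 of the 10 families with at least 100 contigs had intervals that held 1. Among 40 V genes with at least 100 contigs, 3 had intervals above 1 and 1 below, and these intervals carry no adjustment for the number compared. The 3 include IGHV4-1, which held all family 4 contigs, and IGHV2-2, with 56 of the 136 heavy-only contigs of family 2. These genes therefore repeat part of the family results. IGHV2-2, a family 2 gene that lies near the D segments, had the largest ratio at 1.59 (1.15 to 2.16). IGHV14-2 had the smallest at 0.46 (0.22 to 0.86), with 11 heavy-only and 105 heavy plus light contigs.

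Heavy-only cells were clustered on 2000 variable genes without receptor segments, at Leiden resolution 0.5. A total of 7 clusters resulted, described here by number and leading genes with no test, because the same genes formed them. Clusters 0 and 3 held 900 and 193 cells and were shallow, with medians of 2479.5 and 2066 UMIs. Both were high in Il2ra (260 and 475 CPM) and Rag1 (381 and 423 CPM) and low in Igll1 (80.1 and 56.9 CPM). Cluster 0 was led by Dnajc7, Lipc and Ifitm1, and 51.0% of its cells had at least 10 light chain UMIs. Cluster 3 was led by Pdzd2, Klhl14, Agbl1 and Bank1, a B-cell scaffold, and 11.9% of its cells did. The 2 clusters also differed in quality, and the part of quality in that contrast was not tested. The median heavy contig held 14 UMIs in cluster 0 and 8 in cluster 3, and the median mitochondrial share was 1.10% and 1.48%. Clusters with Rag1 above its level over all heavy-only cells were these 2, with 60.8% of cells (58.5 to 63.0).

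Cluster 2 was the other extreme. Its 213 cells had a median of 16364 UMIs, held 33.2% of all UMIs of the heavy-only cells and were led by Myc, Mif, Mt1, Srm and Nrgn. Igll1 stood at 1263 CPM and Vpreb1 at 699.8 CPM there, while Il2ra stood at 6.96 CPM and Rag1 at 9.75 CPM. Myc stood at 297 CPM, and Mki67 at 773 CPM. Clusters 1 and 4, with 289 and 136 cells, were high in Mki67 (1533 and 2442 CPM) and intermediate in Igll1 (352 and 653 CPM). Globins led cluster 1, where 1 of the 289 cells had at least 10 UMIs of the non-B marker lists, and it received no name. Cluster 4 was led by Rad51b and Diaph3 and had the highest Lef1 (572 CPM) and the highest median mitochondrial share (1.99%).

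Clusters 5 and 6 carried genes of other cell types. The 52 cells of cluster 5 were led by S100a8, S100a9 and Camp, granulocyte genes, and Siglech, a plasmacytoid dendritic gene, and 24 of them had a doublet score of 0.25 or more. The 16 cells of cluster 6 were led by the NK genes Ccl5, Gzma and Nkg7, and 10 of them did. Cd79a stood at 896 and 1076 CPM in these clusters.

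**Figure D5:**
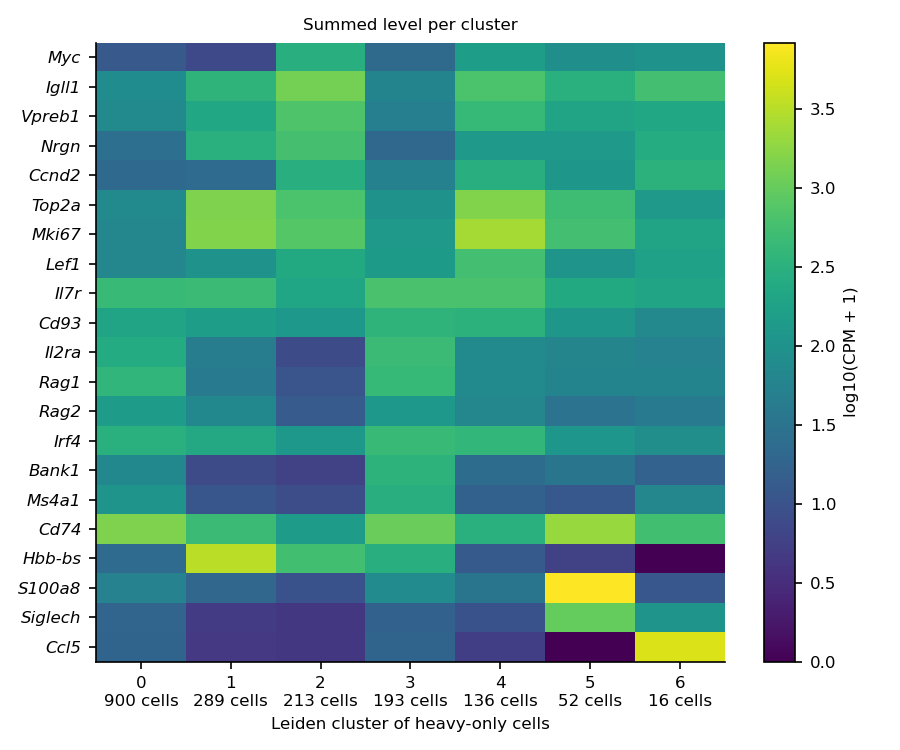
Summed level of 21 genes in the 7 clusters of heavy-only cells, as log10(CPM + 1). Il2ra and Rag1 are brightest in clusters 0 and 3, Igll1, Vpreb1 and Myc in cluster 2, Mki67 and Top2a in clusters 1 and 4, and S100a8 and Ccl5 in clusters 5 and 6.

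A further comparison was with 4206 B-lineage cells with no contig at all, of which 25.2% had at least 10 light chain UMIs, unthinned. Against them, 0.11% of 10912 genes were 2-fold higher and 7.25% were 2-fold lower in heavy-only cells, 7.36% together. The surrogate chain was lower in heavy-only cells, with Vpreb1 at 354 and 688 CPM and Igll1 at 608 and 829 CPM. Dntt stood at 32.9 and 376 CPM, Erg, a regulator of early progenitors, at 21.4 and 170.1 CPM, and Arpp21 at 10.8 and 93.4 CPM. Nrgn, at 301 and 111 CPM, had the largest ratio upward among genes with at least 100 UMIs in heavy-only cells, 2.72 (2.58 to 2.86). S phase and G2/M medians were 0.54 and 0.49 with 20 of 20 genes above 0 in each. Immature and mature B genes were lower here too, with a median log2 ratio of -0.65. Of these genes 19 of 20 tested were below 0, where 6743 of all 10912 genes tested were. Of these 20, 7 were 2-fold lower, where 7.25% of all genes tested were. The plasmacytoid dendritic list, whose cells also carry class II, was lower as well (548 and 2127 CPM summed, 8 of 8 genes at 2-fold). Its part in this result was not tested. At 0 cycle UMIs the intervals of Tnfrsf13c, Fcmr and Ltb overlapped between the 2 groups. Those of Ms4a1, Cd74 and H2-Aa were apart there, with the lower values in heavy-only cells. Mpo, Ctsg and Prtn3, granule genes of myeloid progenitors, and Cpa3 of mast cells and basophils were also among the 12 largest ratios downward. Without cells with 10 or more non-B UMIs, 279 rather than 791 genes were 2-fold lower.

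The heavy-only cells of the Mll3/4 deleted Kit+ library differed in gate and genotype together, which cannot be told apart, and their values are set side by side only. Il2ra stood at 0.068 CPM in those 3363 cells against 101.1 CPM in the B220lo cells, Vpreb1 at 2661 against 354 CPM, Dntt at 1311 against 32.9 CPM and Kit at 378 against 3.42 CPM. The other surrogate chain genes went opposite ways in the deleted library, with Igll1 at 2558 against 608 CPM and Vpreb2 at 0.41 against 45.1 CPM. Among the deleted heavy-only cells 86.1% shared a heavy chain with another heavy-only cell of that library and 1 chain was in 445 cells, and 0 chains were found in both sets.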

How the data were processed

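The authors deposited, for each of 4 libraries, unnormalized UMI counts per gene and cell barcode, made with Cell Ranger 7.1.0 on mm10, per the submitters' processing notes. They also deposited tables of assembled V(D)J contigs with counts of reads and UMIs per contig. Cell calling preceded deposit. The 16861 deposited B220lo barcodes held 85445426 UMIs, a median of 3272 per barcode. Every other step was computed here in scanpy 1.11.5, scipy 1.17.1 and leidenalg 0.10.2. Counts were summed over the cells of a group and expressed as CPM. Log2 ratios carry 1 CPM added, which understates low genes. Genes tested had at least 100 UMIs over both groups and were not receptor segments, except those in a list; "called" meant 2-fold or more. Named genes were those of the lists and the 12 highest and 12 lowest ratios of genes that reached 100 UMIs in the group where they were higher. That rule left out receptor segments, mitochondrial and ribosomal genes, numbered predicted genes and sex-linked genes. A further comparison against heavy plus light cells without Ms4a1 set Ms4a1 to 0 in those cells by construction; its value there is not a result. Contig-free B-lineage cells had a UMI of Cd79a and of Ebf1, Pax5 or Cd79b. Non-B cells had neither a contig nor Cd79a and at least 20 non-B marker UMIs. Clusters used 30 principal components and 15 neighbours, and leading genes were ranked against the mean of the other clusters with 5 CPM added. Scrublet marked 641 of 16329 cells by its own threshold; doublets were kept in the main results, and a score of 0.25 (968 cells, 69 of them heavy-only) was an alternative. The ratio step was tested on simulated data. Of 32285 genes, 32158 were in GENCODE M21 (GRCm38), used for positions. Members and lists were chosen with earlier results of these data known.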

Additional observations from a re-analysis of the deposited data

How the results depend on the processing

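No paired analysis was possible because each group had 1 library; for the same reason no replicate could be left out. In no alternative that was run did the surrogate chain, S phase, G2/M or immature and mature B median change sign, and the cause of the shifts below was not tested. The main counts were 60 genes 2-fold higher and 387 lower than in heavy plus light cells, and 12 higher and 791 lower than in cells without a contig. The main medians were 0.97 for the surrogate chain, -1.49 for immature and mature B genes, 0.84 for S phase and 0.99 for G2/M.

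With 10 CPM added, 10 genes were higher and 105 lower, with medians of 0.79 (surrogate chain) and -1.11 (immature and mature B), and against cells without a contig the counts were 2 and 228. With each cell weighing the same, the counts were 149 and 247, the medians 0.67, -1.37 and, for G2/M, 1.17, and 3 genes were higher than in cells without a contig. With each cell thinned to 1000 UMIs, the counts were 137 and 146, the medians 0.65, -1.37 and 1.17, and 38.8% of heavy-only cells had a light chain constant UMI.

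With heavy-only cells restricted to those without such a UMI, their share of the library was 3.80%, 378 genes were higher and 783 lower, the medians were 1.40, -2.05, 1.10 (S phase) and 1.13 (G2/M), and 59 genes were higher than in cells without a contig. Against light chain cells without Ms4a1, the counts were 6 (1 of them Ms4a1, by construction) and 127, the medians 0.69, -0.31, 0.60 and 0.64, and the recombination median was -0.021 rather than 0.22. Against heavy plus kappa cells the immature and mature B median was -1.57, and without doublet scores of 0.25 or more it was -1.58. With at least 2000 UMIs, 1000 genes and at most 5% mitochondrial UMIs, 2.68% of cells shared a heavy chain, rather than 3.50%.

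A planned filter, a Cd79a UMI and under 3 non-B UMIs, used lists that hold Bst2, Tcf4 and Runx2. Under it heavy-only cells were 13.7% of the cells that passed the filter, not of the whole library. There 179 genes were higher and 202 lower, the medians were 0.55 (surrogate chain), 1.01 (S phase) and 1.17 (G2/M), and 2.09% shared a chain. The other filters were chosen after seeing the data. With under 10 UMIs of shortened non-B lists, heavy-only cells were 13.3% of the cells that passed that filter. The medians were 0.82 and -1.64, 279 genes were lower than in cells without a contig, and 64.5% of cells lay in the clusters high in Rag1. Without cells with 20 or more Jchain UMIs, 22 genes were higher.

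Of the 219 named and listed genes, 75 were 2-fold in the main comparison. The sign changed for 8 of these 75 and 29 of the others under the planned filter, for 6 and 10 under the shortened one, for 4 and 12 without light chain constant UMIs, for 2 and 18 against cells without Ms4a1, for 1 and 17 with each cell weighing the same and for 0 and 18 when thinned. The globins Hbb-bs, Hbb-bt, Hba-a1 and Hba-a2 had log2 ratios of -4.89, -4.28, -2.28 and -2.11 without light chain constant UMIs. They had -0.56, -0.68, -0.52 and -0.23 under the planned filter and -0.64, -0.88, -0.10 and -0.42 under the shortened one. Under the planned filter Cpa3, Cstdc5, Mpo and Prdm1 turned to 0.36, 0.070, 0.089 and 0.31; Prdm1 was also 0.22 with each cell weighing the same. Under the shortened filter Cstdc5 was 0.00016 and Mcpt8 0.033. Against cells without Ms4a1, Ms4a1 was 5.49 by construction and Shisa8 0.012. Depth limits genes with few UMIs, such as Tnfrsf17, Ccr10 and Shisa8, and no interval covers variation between mice.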
